A study of Mus musculus with 24 samples.

Results

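The immunity-related GTPases (IRGs) described here are 7 genes, Irgm1, Irgm2, Igtp, Ifi47, Iigp1, Tgtp1 and Tgtp2, chosen by name from the 13568 genes listed for mouse bone marrow-derived macrophages. All 7 were found, and their levels were read in 24 RNA-seq libraries, 6 in each of 4 groups. The cells came from the marrow of 12 male C57Bl/6 mice, whose age is not given in the labels. Diabetes was induced in 6 mice with streptozotocin, which kills pancreatic beta cells, and the other 6 were untreated wild-type controls, so the model is a chemical loss of beta cells and not an inherited diabetes. In both phenotypes the marrow was differentiated for 7 days with medium conditioned by L929 cells, in 5 mmol/L glucose. Each mouse gave 1 unstimulated culture and 1 that received 100 ng/mL LPS (lipopolysaccharide of the outer bacterial membrane) together with 10 ng/mL interferon-gamma for 6 h. The comparisons ask how donor diabetes and stimulation change these genes, and whether the response to stimulation differs between phenotypes.

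IRGs are large GTPases that mouse cells make after interferon and that act on the membranes of vacuoles holding bacteria or protozoa such as Toxoplasma gondii. The regulators Irgm1, Irgm2 and Igtp (Irgm3) carry an altered GTP-binding motif, GMS, sit on the cell's own membranes and keep the other IRGs in their inactive, GDP-bound state. The effectors Iigp1 (Irga6), Tgtp1 and Tgtp2 (Irgb6) and Ifi47 (Irgd) carry the usual GKS motif and load onto the vacuole membrane in the GTP-bound state. Promoters of IRG genes are known for gamma-activated sites (GAS) and for interferon-stimulated response elements (ISRE), the latter bound by IRF1 and ISGF3.

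All members but Iigp1 (ENSMUSG00000054072) lie on chromosome 11 (GRCm38). Irgm1 (ENSMUSG00000046879) spans chr11:48861968-48871683 on the minus strand. Tgtp1 (ENSMUSG00000078922) at chr11:48985327-48994172 and Tgtp2 (ENSMUSG00000078921) at chr11:49057194-49064206 are also on the minus strand. Ifi47 (ENSMUSG00000078920) follows on the plus strand at chr11:49076587-49096974 and shares 111 exonic bases with Olfr56 on the same strand. Igtp (ENSMUSG00000078853) at chr11:58199556-58207591 and Irgm2 (ENSMUSG00000069874) at chr11:58199618-58222782 overlap on the plus strand and share 162 exonic bases.

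Since the members are the classical targets of interferon, their promoters were searched in RefSeq (GRCm38.p6), from 250 bases before to 50 bases after each gene start, on both strands. The promoters of 6 members were examined, in these stretches only. Those of Irgm1, Irgm2 and Tgtp1 lie inside the gene spans given above, and further starts of a gene were not searched. The patterns were GAAANNGAAA for an ISRE-type match and TTCNNNGAA for a GAS-type match. The 60 bases around the matches are shown 5′ to 3′ on the gene's strand with the matched letters in capitals. Gm12185, a further IRG-type gene, is shown because its promoter holds the same arrangement.
Irgm1, chr11:48871410-48871469, minus strand: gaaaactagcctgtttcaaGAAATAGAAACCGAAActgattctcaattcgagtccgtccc
Irgm2, chr11:58214888-58214947, plus strand: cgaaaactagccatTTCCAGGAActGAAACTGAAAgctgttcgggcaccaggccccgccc
Igtp, chr11:58199497-58199556, plus strand: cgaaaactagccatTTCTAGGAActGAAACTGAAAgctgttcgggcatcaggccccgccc
Tgtp1, chr11:48992289-48992348, minus strand: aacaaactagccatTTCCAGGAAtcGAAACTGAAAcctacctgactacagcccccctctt
Tgtp2, chr11:49064248-49064307, minus strand: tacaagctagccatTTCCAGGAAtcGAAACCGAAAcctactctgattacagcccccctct
Gm12185, chr11:48927223-48927282, minus strand: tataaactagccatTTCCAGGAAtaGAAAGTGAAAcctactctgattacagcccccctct

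An ISRE-type match stood in 5 of the 6 promoters, against 3.49% of 27025 RefSeq promoters. A GAS-type match stood in 4 of the 6, against 8.47% of all promoters. In Irgm2, Igtp, Tgtp1 and Tgtp2 both matches occurred together, with 2 bases between the end of the GAS-type and the start of the ISRE-type match. The GAS-type match began 75 bases before the gene start in Irgm2, 45 in Igtp, 88 in Tgtp1 and 81 in Tgtp2. This exact arrangement, a pattern written down after these promoters had been read, stood in 5 of the 27025 promoters, those of these 4 members and of Gm12185. The windows of Irgm2 and Igtp were identical at 58 of 60 positions, and those of Tgtp2 and Gm12185 at 55, so these promoters are related copies and not independent occurrences. Irgm1 had a pair of overlapping ISRE-type matches and no GAS-type match, and the Ifi47 promoter (chr11:49076337-49076636) had no match to either pattern in these 300 bases. A match describes the letters of a promoter and is not a measured binding site.

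**Figure D1:**
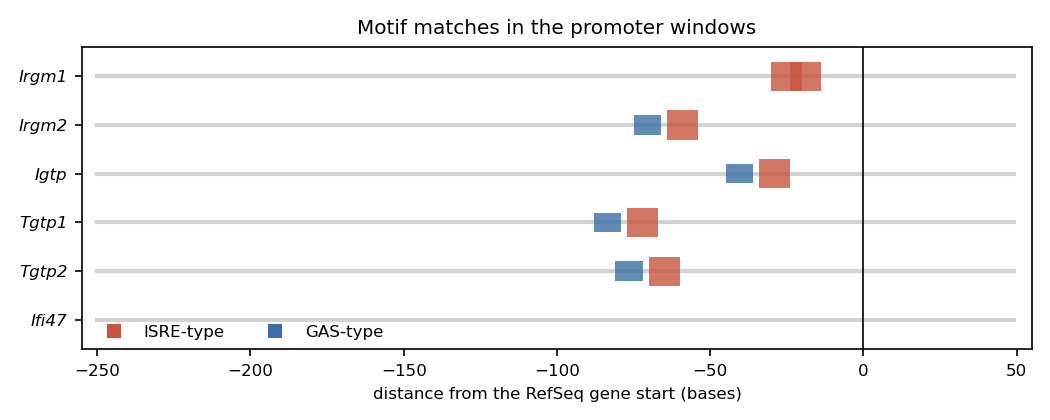
Positions of ISRE-type (GAAANNGAAA, red) and GAS-type (TTCNNNGAA, blue) matches in the promoters of 6 members, as distance in bases from the RefSeq gene start (vertical line). In Irgm2, Igtp, Tgtp1 and Tgtp2 the GAS-type match lies 2 bases before the ISRE-type match, Irgm1 has 2 overlapping ISRE-type matches, and Ifi47 has neither.

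Levels are read counts relative to the scaled library size (CPM, on the authors' scaling), and log2 fold changes are differences of log2(CPM + 1) with their SE, a scale that understates changes of low genes. The libraries held 16754771 to 34130060 reads in the listed genes, so 3 reads stood for 0.0835 to 0.175 CPM. The scaled library size was 1.23 to 1.28 times the reads in unstimulated control and 1.26 to 1.29 times in unstimulated diabetic libraries. It was 0.726 to 0.785 times the reads in stimulated control and 0.807 to 0.833 times in stimulated diabetic libraries. Rises with stimulation, and falls between stimulated phenotypes, are therefore larger in CPM than in share of reads. Libraries of one group correlated at r = 0.996 to 0.998 across genes. All 8 macrophage markers were listed and summed to 14225 to 19707 CPM over the 24 libraries, with overlapping ranges between phenotypes in each state. Lyz2 made up the largest part of this sum and was higher in unstimulated diabetic cells (0.24 ± 0.07, adjusted p = 0.0136). Single macrophage markers moved with phenotype, since Fcgr1 (-1.17 ± 0.10, adjusted p = 1.28e-08), Adgre1 (-0.36 ± 0.04, adjusted p = 2.39e-07), Cd14 (-0.34 ± 0.09, adjusted p = 0.00706) and Cd68 (-0.17 ± 0.06, adjusted p = 0.0295) fell in unstimulated diabetic cells. The first 3 did not overlap between the groups, which held for 7.32% of all tested genes in this direction. Of the 8 markers, 4 were called lower, 1 higher and 3 neither, against 10.2% lower and 9.16% higher among all tested genes. Other cell types' markers were low. The listed B lineage markers (Cd79b and Ighm, 2 of 5) summed to 7.57 to 20.7 CPM in unstimulated control and 24.3 to 58.3 CPM in unstimulated diabetic libraries. The 2 went opposite ways there, with Ighm higher (1.60 ± 0.23, adjusted p = 2.37e-05) and Cd79b lower (-0.31 ± 0.10, adjusted p = 0.0203) in diabetic cells. The neutrophil markers (2 of 6) summed to 14.3 to 23.3 CPM in unstimulated control and 34.1 to 43.7 CPM in unstimulated diabetic libraries. The T and NK cell list (1 of 6) reached at most 1.20 CPM in any library. In stimulated control and diabetic libraries the B lineage sums were 1.29 to 2.30 and 2.95 to 5.26 CPM and the neutrophil sums 28.8 to 34.9 and 38.9 to 50.9 CPM. The dendritic cell markers (2 of 5) reached at most 14.5 CPM and the fibroblast markers (1 of 4) at most 1.03 CPM, both in stimulated diabetic libraries. These markers moved with phenotype or stimulation, and their part in the results below was not tested. In bulk libraries, fewer cells of a type and less RNA per cell cannot be told apart.

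Unstimulated macrophages of diabetic mice held less of the IRG transcripts than those of controls. The summed level of the 7 genes was 257 ± 57.7 CPM (SD, n = 6) in control and 138 ± 8.48 CPM (SD, n = 6) in diabetic cultures. All 3 regulators, Ifi47, Iigp1 and Tgtp2 fell, so 6 of 7 members passed the test (limma, Benjamini-Hochberg adjusted p under 0.05 over 11710 genes), against 10.2% of all tested genes called lower and 9.16% called higher. In each of these 6 the libraries of both groups did not overlap, which held for 7.32% of all tested genes in this direction. The median log2 fold change was -0.86 over the members and -0.0048 over all genes tested.

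Among the regulators, Irgm1, which also acts in autophagy and in the survival of macrophages, ranged from 98.6 to 164 CPM with a median of 112 in control cultures. In diabetic cultures it ranged from 59.8 to 72.1 CPM with a median of 64.6. Every diabetic library was thus below every control library, and the log2 fold change was -0.83 ± 0.08 (adjusted p = 1.07e-07). Irgm2, found on the Golgi apparatus and at vacuoles, ranged from 49.9 to 84.3 CPM (median 56.4) in control and from 29.3 to 36.6 CPM (median 30.6) in diabetic cultures, with no overlap. Its log2 fold change was -0.86 ± 0.10 (adjusted p = 6.5e-07). Igtp, which sits on the endoplasmic reticulum and lipid droplets, ranged from 25.6 to 45.6 CPM (median 28.5) in control cultures. In diabetic cultures its levels lay within a narrow span, 17.2 to 18.8 CPM with a median of 17.9. They were all below the control levels, and the log2 fold change was -0.75 ± 0.09 (adjusted p = 1.87e-06).

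Of the effectors, Ifi47 ranged from 31.1 to 59.97 CPM (median 37.7) in control and from 18.8 to 21.9 CPM (median 20.4) in diabetic cultures. The groups did not overlap and the log2 fold change was -0.90 ± 0.10 (adjusted p = 6.17e-07). Iigp1, the member on chromosome 18, the best studied effector and a GTPase that forms oligomers on the vacuole of Toxoplasma gondii, was low without stimulation. It ranged from 2.30 to 10.5 CPM (75 to 332 reads, median 3.47 CPM) in control and from 1.45 to 1.85 CPM (34 to 53 reads, median 1.58 CPM) in diabetic cultures. The control libraries were spread far more widely than the diabetic ones, and the log2 fold change was -0.99 ± 0.19 (adjusted p = 0.000651). In the second of the 2 blocks of 12 table columns alone, Iigp1 did not pass (log2 fold change -1.06, adjusted p = 0.158), whereas it did in the first block.

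Tgtp1 and Tgtp2 encode nearly the same protein and are hard to count apart. Their longest transcripts were 99.3% identical, and 89.4% of the 50-base stretches of Tgtp1 also occur in Tgtp2. The sources used here do not say how reads that fit both were assigned, so the split between the pair is uncertain. Tgtp2 ranged from 2.17 to 5.13 CPM (median 2.45) in unstimulated control and from 0.379 to 1.02 CPM (median 0.736) in unstimulated diabetic cultures, without overlap. Its log2 fold change was -1.11 ± 0.13 (adjusted p = 6.45e-07). Tgtp1 had 2 to 5 reads per control library and 0 to 2 per diabetic library, with 2 of 6 diabetic libraries at 0, and did not pass (log2 fold change -0.11 ± 0.07, 95% interval -0.25 to 0.04, adjusted p = 0.348). This depended on the pseudocount, since Tgtp1 passed with 0.25 CPM in place of 1 (-0.35, adjusted p = 0.0171) and on the deposited log2 values (-1.80, adjusted p = 0.00317). Summed to 1 gene, an alternative added after the data were seen, the pair had 2.93 ± 1.14 CPM (SD, n = 6) in control and 0.764 ± 0.208 CPM (SD, n = 6) in diabetic cultures. The log2 fold change of the sum was -1.13 ± 0.12 (adjusted p = 3.35e-07).

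**Figure D2:**
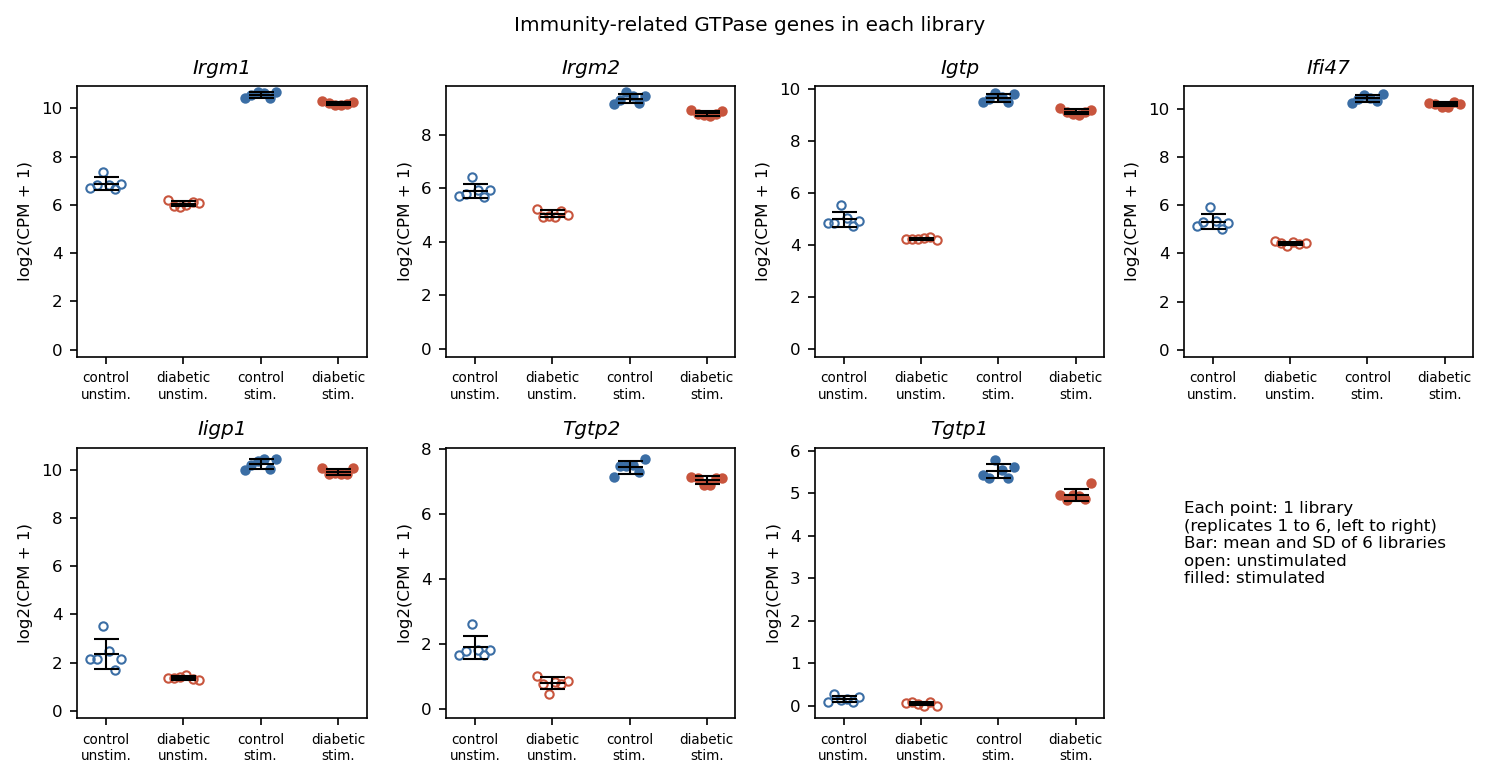
Level of each of the 7 genes in each library as log2(CPM + 1), 6 libraries per group (blue control, red diabetic, open unstimulated, filled stimulated), with the mean and SD as bars. Unstimulated diabetic libraries lie below all unstimulated control libraries in 6 of the 7 genes, and all stimulated libraries lie above all unstimulated ones.

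The unstimulated control libraries were not evenly spread. Control mouse 3 held the highest level of 6 of 7 members, for example 164 CPM of Irgm1 and 10.5 CPM of Iigp1. Without both libraries of this mouse, left out after the data were seen, the same number of members, 6 of 7, was called lower in unstimulated diabetic cultures. The log2 fold change of Iigp1 was then -0.76 (adjusted p = 1.31e-05).

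Stimulation with LPS and interferon-gamma raised the whole family in both phenotypes. Together the 7 genes went from 0.0320 ± 0.00689% to 0.443 ± 0.0362% of all reads in control cells (SD, n = 6). In diabetic cells they went from 0.0176 ± 0.00124% to 0.369 ± 0.0180% (SD, n = 6). In summed CPM the rise was larger, with means going from 257 to 5814 in control and from 138 to 4490.5 in diabetic cells. All 7 members rose in control cells, against 34.9% of all tested genes called higher and 56.4% called lower. All 7 rose in diabetic cells, against 35.2% of genes called higher and 55.1% called lower. Tgtp1 passed the minimum level only through its stimulated libraries, so its rise follows from the filter. The stimulated and unstimulated libraries of each member did not overlap in either phenotype, which held for 30.6% of all genes in control and 31.3% in diabetic cells in this direction. Median log2 fold changes of the members were 5.13 in control and 4.91 in diabetic cells, against -0.30 and -0.25 over all genes tested. The diabetic median is the value of Tgtp1, which was 5.36 in control cells. Every other member had a larger log2 fold change in diabetic than in control cells.

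Of the effectors, Iigp1, Ifi47 and Tgtp2 had higher log2 fold changes than each of the 3 regulators in both phenotypes. On the scale of log2(CPM + 1), Iigp1 had the largest change of the family, with a rank of 23 from the top among 11710 genes in control cells; on the deposited log2 values that of Tgtp1, which rests on 0 to 5 unstimulated reads, was larger. Its stimulated libraries ranged from 1001 to 1404 CPM (median 1236) in control and from 898 to 1077 CPM (median 924) in diabetic cultures. Its group mean was 263-fold higher than without stimulation in control and 605-fold higher in diabetic cells, with log2 fold changes of 7.87 ± 0.19 (adjusted p = 1.44e-20) and 8.54 ± 0.19 (adjusted p = 3.46e-21).

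Ifi47 ranged from 1221 to 1607 CPM (median 1396) in stimulated control and from 1094 to 1256 CPM (median 1196) in stimulated diabetic libraries. This was 35.2-fold above unstimulated control and 57.7-fold above unstimulated diabetic cells by group means. Tgtp2 ranged from 141 to 206 CPM (median 178) in stimulated control and from 117 to 140.5 CPM (median 138) in stimulated diabetic libraries. Its group means were 61.5-fold and 181-fold above those without stimulation. Tgtp1 went from a few reads to 40.0 to 54.0 CPM (median 43.5) in control and 27.6 to 36.4 CPM (median 29.8) in diabetic cells, and no fold is given against so few reads.

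Among the regulators Igtp responded most. It ranged from 727 to 912 CPM (median 800.3) in stimulated control and from 517 to 623 CPM (median 552) in stimulated diabetic libraries, with group means 25.8-fold and 31.2-fold above those without stimulation. Irgm1 ranged from 1356 to 1646 CPM (median 1527) and from 1112 to 1279 CPM (median 1167), which was 12.8-fold and 18.1-fold higher. Irgm2 had the smallest response of the family in both phenotypes, at 568 to 764 CPM (median 657) and 413 to 484 CPM (median 433), or 10.9-fold and 13.9-fold. Its log2 fold change in control cells was 3.45 ± 0.10 (adjusted p = 7.33e-21).

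The order of the genes changed with stimulation when levels were divided by the length of the longest transcript. In unstimulated control cells Irgm1 led with 30.8 ± 6.16 CPM per kb (SD, n = 6), followed by Ifi47 with 22.6 ± 5.77 (SD, n = 6). Irgm2 with 16.9 ± 3.61 and Igtp with 15.5 ± 3.60 CPM per kb came next (SD, n = 6), and Irgm2 was above Igtp in each of these libraries. Iigp1 with 1.48 ± 0.953 and Tgtp2 with 1.003 ± 0.407 CPM per kb were lower (SD, n = 6), and Tgtp1 was last. Iigp1 was above Tgtp2 in each of these libraries but that of control mouse 5 (0.736 and 0.774 CPM per kb). Unstimulated diabetic cells had the same order of means, with Irgm1 at 16.998 ± 1.25 and Ifi47 at 11.5 ± 0.561 CPM per kb (SD, n = 6).

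In stimulated control cells Ifi47 led with 795 ± 80.5 CPM per kb (SD, n = 6). Igtp with 400.5 ± 39.2, Irgm1 with 394 ± 34.2 and Iigp1 with 389 ± 54.8 CPM per kb came next (SD, n = 6). The order of these 3 varied from library to library. Irgm2 followed with 185 ± 21.5 CPM per kb, then Tgtp2 with 61.7 ± 8.01 and Tgtp1 with 15.9 ± 1.92 (SD, n = 6). Stimulated diabetic cells had Ifi47 at 666 ± 38.1 CPM per kb, then Iigp1 at 309 ± 26.6 and Irgm1 at 308 ± 16.2 (SD, n = 6). The order of Iigp1 and Irgm1 varied from library to library. Igtp followed at 277 ± 19.8 CPM per kb (SD, n = 6), and the last 3 places were the same as in control cells.

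With this change of order, the balance between regulators and effectors shifted. Irgm1, Irgm2 and Igtp made up 71.8 ± 1.37% of the family's summed CPM per kb in unstimulated control and 73.9 ± 0.975% in unstimulated diabetic cells (SD, n = 6). After stimulation they made up 43.7 ± 0.862% in control and 40.8 ± 0.562% in diabetic cells (SD, n = 6). The stimulated libraries ranged from 42.6 to 44.9% in control and from 39.7 to 41.4% in diabetic cells, so the phenotypes did not overlap. Iigp1 alone went from 1.57 ± 0.557% to 17.3 ± 1.01% in control and from 1.09 ± 0.129% to 17.7 ± 0.878% in diabetic cells (SD, n = 6).

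**Figure D3:**
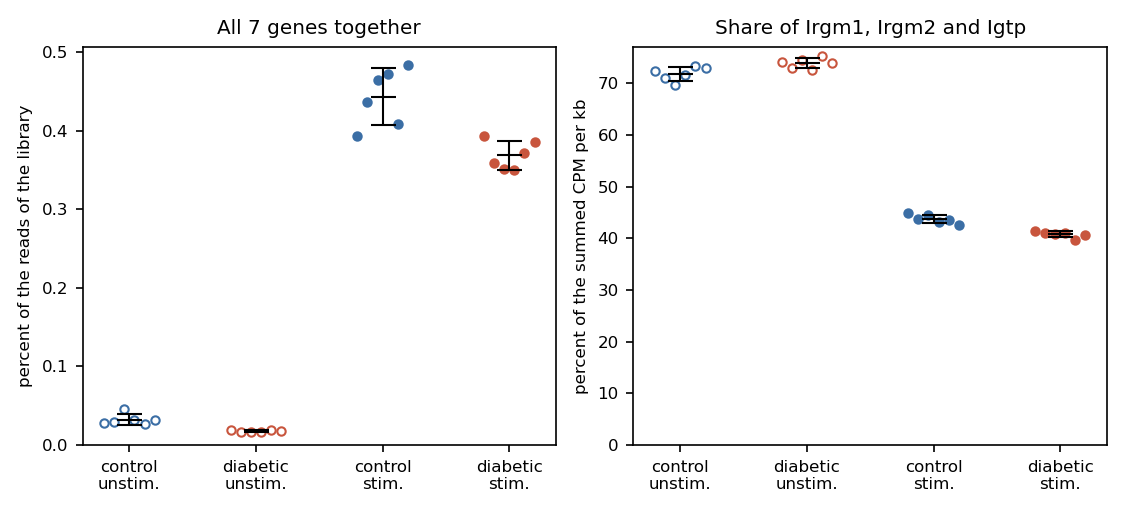
Left, share of all reads in the 7 genes together, in percent of each library. Right, share of Irgm1, Irgm2 and Igtp in the family's summed CPM per kb, in percent. Points are libraries, bars the mean and SD of 6 libraries per group. The family's share of reads is 0.443% in stimulated control and 0.369% in stimulated diabetic cells, and the share of the 3 regulators goes from over 69% without stimulation to under 45% with it.

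After stimulation the diabetic cultures also held less of most members, by smaller log2 differences than without it except for Tgtp1. The summed level was 5814 ± 602 CPM (SD, n = 6) in control and 4490.5 ± 260.4 CPM (SD, n = 6) in diabetic cultures. Irgm1, Irgm2, Igtp, Ifi47, Tgtp1 and Tgtp2 were called lower, 6 of 7 members, against 21.9% of all tested genes called lower and 29.8% called higher. Scaling by total reads, quantile normalization and the deposited log2 values each called 4 members, and the second column block alone 3. Irgm1, Irgm2, Igtp, Tgtp1 and Tgtp2 had no overlap between the groups, which held for 11.4% of all tested genes in this direction. The members' median log2 fold change was -0.39, against 0.03 over all genes.

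Irgm2 and Igtp had the firmest differences among the regulators, at -0.55 ± 0.10 (adjusted p = 5.57e-05) and -0.53 ± 0.09 (adjusted p = 4.38e-05), and both passed in each of the 27 alternative settings tried. Irgm1 was lower by -0.35 ± 0.08 in log2 units (adjusted p = 0.00117), but did not pass after quantile normalization (-0.19, adjusted p = 0.0900) or in the second column block alone (adjusted p = 0.104). The stimulated libraries of Tgtp1 did not overlap, with the lowest control library at 40.0 and the highest diabetic library at 36.4 CPM, and the log2 fold change was -0.55 ± 0.07 (adjusted p = 3.71e-07). On the deposited log2 values it did not pass (-0.57, adjusted p = 0.270). Tgtp2 was just apart, at 140.7 CPM in the lowest control and 140.5 CPM in the highest diabetic library, with -0.39 ± 0.13 (adjusted p = 0.0126). It lost this call in 4 of 28 alternatives, with a pseudocount of 0.25 CPM (adjusted p = 0.0516), total reads (0.0627), the deposited log2 values (0.0985) and the second column block (0.271). Summed, the pair had 218 ± 25.6 and 162 ± 11.6 CPM (SD, n = 6) and a log2 fold change of -0.42 ± 0.12 (adjusted p = 0.00526).

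For Ifi47 the difference was close to the threshold. Its log2 fold change was -0.25 ± 0.10 (adjusted p = 0.0399), its groups overlapped, and it lost the call in 13 of 27 alternative settings, among which its adjusted p ran from 0.000812 to 0.586. Leaving out any of the stimulated control libraries 2, 3, 4 or 6 or the stimulated diabetic libraries 2, 3, 4 or 6 was enough to lose it. Iigp1 did not pass, at -0.32 ± 0.19 (95% interval -0.72 to 0.07, adjusted p = 0.161), with 4 of 6 diabetic libraries below all control libraries. Iigp1 did pass in 5 of 27 alternatives, fitted with only the stimulated groups (adjusted p = 0.00518), in the first column block (0.00576), with voom (0.0197), without control mouse 3 (0.0201) and with a pseudocount of 5 CPM (0.0378).

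**Figure D4:**
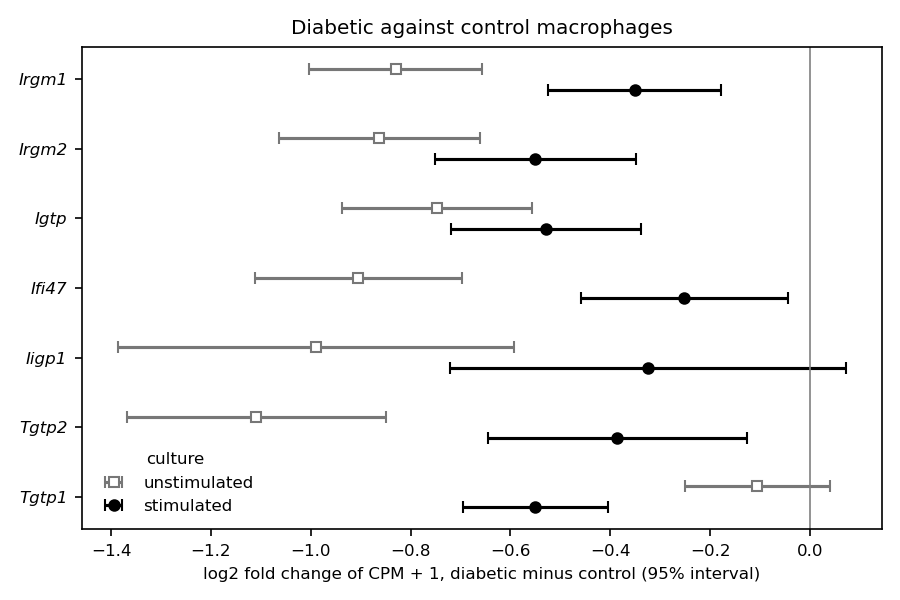
Log2 fold change of CPM + 1, diabetic minus control, for each of the 7 genes in unstimulated (open squares) and stimulated cultures (filled circles), with 95% intervals from limma. All values lie below 0, and the intervals of Tgtp1 without stimulation and of Iigp1 with it reach across 0.

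The response to stimulation was called different between phenotypes in 4 of the members, 1 of which, Tgtp1, cannot be read as a changed response. The test of that difference (diabetic minus control response) draws on the same 24 libraries as the comparisons above and is not independent of them. It was positive and called in Irgm1, Ifi47 and Tgtp2, and negative and called in Tgtp1, so 4 of 7 members passed, against 32% of all tested genes called in either direction. By direction, 3 members were called higher, against 19.6% of all genes, and 1 lower, against 12.4%. The 1 lower was Tgtp1, which passed the minimum level only through its stimulated libraries, so its value follows the stimulated level. The members' median was 0.48, against 0.03 over all genes.

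Irgm1 had log2 responses of 3.32 to 3.80 in the 6 control mice and 4.05 to 4.25 in the 6 diabetic mice. The difference was 0.48 ± 0.12 (adjusted p = 0.00328). Ifi47 had responses of 4.65 to 5.40 in control and 5.64 to 5.88 in diabetic mice, and a difference of 0.65 ± 0.14 (adjusted p = 0.00121). How often the ranges of control and diabetic mice lay apart over all tested genes was not counted. Tgtp2 had responses of 4.87 to 5.89 in control and 6.06 to 6.44 in diabetic mice, and a difference of 0.72 ± 0.18 (adjusted p = 0.00312). In the second column block alone none of these 3 passed, at adjusted p of 0.132, 0.121 and 0.0728, with differences of 0.54, 0.73 and 0.96 in the order given. With a pseudocount of 5 CPM the difference of Tgtp2 was 0.06 (adjusted p = 0.714).

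Irgm2 (0.31 ± 0.14, adjusted p = 0.0862) and Iigp1 (0.66 ± 0.27, adjusted p = 0.0640) missed the threshold. With the mouse as a block, which pairs cultures by replicate number, they passed with adjusted p of 0.00116 and 0.0411, and 6 of 7 members were called. Without unstimulated control library 5, Irgm2 (0.36, adjusted p = 0.0499) and Iigp1 (0.79, adjusted p = 0.0199) passed too, and without unstimulated control library 3 Iigp1 passed at a smaller difference (0.43, adjusted p = 0.0211). Without both libraries of control mouse 3, 6 of 7 members were called. Igtp did not pass, at 0.22 ± 0.13 (95% interval -0.05 to 0.49, adjusted p = 0.210), and was 0.11 without unstimulated control library 3.

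Tgtp1 was the only member of the 7 with a negative value, -0.44 ± 0.10 (adjusted p = 0.00118), and its sign depended on the pseudocount. With 0 to 5 reads per unstimulated library, its response on the scale of log2(CPM + 1) follows the stimulated level. On the deposited log2 values the difference was 1.23 (adjusted p = 0.120), and summed with Tgtp2 it was 0.70 ± 0.17 (adjusted p = 0.00281). The share of the pair's reads assigned to Tgtp1 was 20.6 ± 2.05% in stimulated control and 18.7 ± 1.88% in stimulated diabetic libraries (SD, n = 6), with overlapping ranges.

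**Figure D5:**
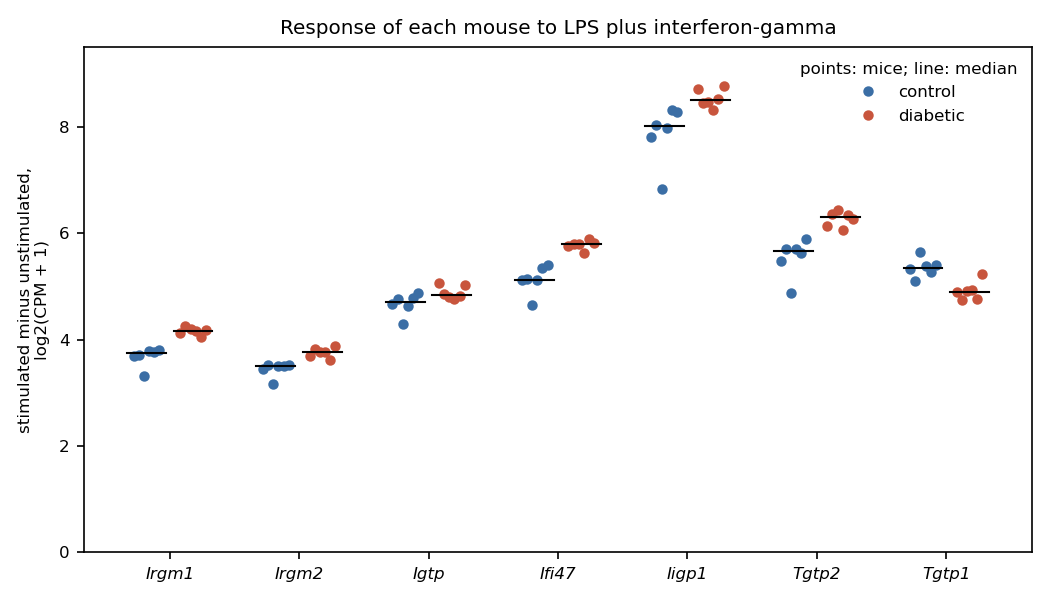
Response of each mouse, stimulated minus unstimulated log2(CPM + 1), for the 7 genes in 6 control (blue) and 6 diabetic mice (red), with the median as a line. Cultures are paired by replicate number. The diabetic median is above that of the controls in Irgm1, Irgm2, Igtp, Ifi47, Iigp1 and Tgtp2. The lowest diabetic and highest control mouse of Iigp1 are level at 8.31. In Tgtp1 the diabetic median is below that of the controls.

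Of 16 names on a list of other IRG-type genes, 9 were listed and tested. In unstimulated diabetic cells 7 of the 9 fell and none rose, against 10.2% and 9.16% of all tested genes (median -0.40). Gm12250, which RefSeq also names Irgb10 and which in mouse acts on bacteria in the cytosol, had 16.3 ± 5.43 CPM in control and 6.73 ± 0.639 CPM in diabetic cells (SD, n = 6), a log2 fold change of -1.12 ± 0.12 (adjusted p = 5.35e-07). Gm4951 (-1.56 ± 0.17, adjusted p = 6.45e-07), F830016B08Rik (-1.01 ± 0.14, adjusted p = 5.01e-06) and Gm5431 (-0.87 ± 0.09, adjusted p = 4.43e-07) fell as well. Gm12185, whose promoter is shown above, went from 2.13 ± 0.190 to 1.40 ± 0.392 CPM (SD, n = 6; -0.40 ± 0.10, adjusted p = 0.00348). It shares 223 exonic bases with Tgtp1 on the same strand. After stimulation 6 of the 9 were lower in diabetic cells, against 21.9% of all genes, and Irgq alone was higher (0.31 ± 0.05, adjusted p = 3.05e-06; median of the list -0.35). Stimulation raised 8 of the 9 in each phenotype, against 34.9% of all genes in control and 35.2% in diabetic cells. Of these 8, Gm4841 passed the minimum level only through its stimulated libraries. Irgq fell with stimulation in control cells (-0.27 ± 0.05, adjusted p = 3.11e-06). The interaction was called higher in 5, against 19.6% of all genes, and lower in 1, which was Gm4841, at 0 CPM in all unstimulated control libraries. Irgq and Gm4841 are named after their values were seen.

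The guanylate-binding proteins, GTPases that act with the IRGs at pathogen vacuoles, fell in 8 of 10 tested members in unstimulated diabetic cells, against 10.2% of all genes (median -0.48). Gbp9 had the smallest p, with 55.3 ± 9.81 CPM in control and 32.1 ± 2.96 CPM in diabetic cells (SD, n = 6; -0.75 ± 0.08, adjusted p = 6.53e-08). Gbp3, Gbp7 and Gbp6 fell by 0.45, 0.50 and 0.59 on the log2 scale. After stimulation 7 of 10 were lower, against 21.9% of all genes, and none higher (median -0.37). All 10 were higher with stimulation in both phenotypes, against 34.9% of all genes in control and 35.2% in diabetic cells. Of these 10, Gbp6, Gbp10 and Gbp11 passed the minimum level only through their stimulated libraries. The interaction was called in 3 of 10, 2 higher and Gbp11 lower, a share near the 32% of all genes.

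Upstream of the family, 2 of the 9 tested genes from the interferon-gamma receptor to IRF1 were lower in unstimulated diabetic cells and none higher (median -0.11), against 10.2% and 9.16% of all genes. Irf1, a transcription factor that activates IRG genes, differed by -0.17 ± 0.05 (adjusted p = 0.0225). Irf8 (-0.17, adjusted p = 0.0584) and the phosphatase gene Ptpn2 (-0.11, adjusted p = 0.111) did not pass. After stimulation Irf1 was lower (-0.22 ± 0.05, adjusted p = 0.00142), and 5 of 9 were lower and 1 higher in diabetic cells (median -0.12), against 21.9% and 29.8% of all genes. Irf8 was then 3628 ± 302 and 2100.0 ± 254 CPM (SD, n = 6; -0.79 ± 0.06, adjusted p = 4.26e-10). Stimulation raised 8 of the 9 and lowered 1 in each phenotype. Of all genes, 34.9% were raised and 56.4% lowered in control cells, and 35.2% and 55.1% in diabetic cells. Among the 8 raised, Socs1 passed the minimum level only through its stimulated libraries. The interaction was called in 3 of 9, 2 higher and 1 lower, near the 32% of all genes.

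Of the genes from type I interferon to ISGF3, 5 of 9 fell in unstimulated diabetic cells and none rose (median -0.21), against 10.2% and 9.16% of all genes. Stat2 and Irf9, which encode subunits of ISGF3, differed by -0.89 ± 0.08 (adjusted p = 2.74e-08) and -0.46 ± 0.05 (adjusted p = 3.35e-08). Stat2 had 200.02 ± 41.5 CPM in control and 106 ± 7.49 CPM in diabetic cells (SD, n = 6). Irf7, which amplifies type I interferon, differed by -2.17 ± 0.19 (adjusted p = 5.29e-08). Usp18, a brake on the type I receptor, differed by -1.18 ± 0.14 (adjusted p = 2.04e-06). After stimulation 6 were lower and 2 higher in diabetic cells (median -0.22), against 21.9% and 29.8% of all genes. In each phenotype 8 of the 9 rose with stimulation and 1 fell. Of all genes, 34.9% rose and 56.4% fell in control cells, and 35.2% and 55.1% in diabetic cells. Among the 8 that rose, Ifnb1 passed the minimum level only through its stimulated libraries. The interaction was called higher in 6 and lower in 1, against 19.6% and 12.4% of all genes. The 6 include Ifnb1, with means of 0.00639 CPM in unstimulated control and 0.0133 CPM in unstimulated diabetic cells, so its value follows the stimulated level.

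The ATG8 conjugation and vacuole-loading genes encode proteins that help load IRGs onto vacuoles. Only Gabarapl1, an ATG8 protein, rose (0.21 ± 0.06, adjusted p = 0.00764) and only Atg16l1, part of the conjugation complex, fell (-0.15 ± 0.04, adjusted p = 0.00625) among the 12 in unstimulated diabetic cells. Atg7 (0.09, adjusted p = 0.152) and Gabarapl2 (0.17, adjusted p = 0.162) did not pass. The median was 0.03, and the share called was 1 of 12 in each direction, near the 9.16% higher and 10.2% lower of all genes. After stimulation 5 of 12 were higher and 1 lower in diabetic cells (median 0.02), against 29.8% and 21.9% of all genes. Stimulation raised 8 and lowered 4 in control cells, against 34.9% and 56.4% of all genes. In diabetic cells it raised 6 and lowered 3, against 35.2% and 55.1% of all genes. The interaction was called in 4 of 12, 3 higher and 1 lower, near the 32% of all genes. The lists were not compared with each other by a test.

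Once the group means were removed, the members still varied together from library to library. Over the 24 libraries, each member's deviation from its group mean correlated with that of the family mean, which includes it, at r = 0.92 to 0.97 in 6 members and at 0.37 in Tgtp1. The 5 genes outside the family most like its mean by this measure were Rsad2 and Ifit1 (r = 0.945 each), Cmpk2, Ifi204 and Ddx58 (r = 0.944 each), all known as genes induced by interferon. Within the 12 unstimulated libraries these correlations were 0.965 to 0.982, and within the 12 stimulated ones 0.818 to 0.905. The libraries share their mice and their scaling, and control mouse 3 was highest among unstimulated controls in 6 of the 7 members, so these values are a description of the 24 libraries.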

How the data were processed

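Per the labels' protocols, a mirVana kit gave the RNA and a stranded mRNA kit the libraries. A label naming genomic DNA as the molecule goes against this and was set aside. The submitters' processing notes list edgeR 3.16.5, STAR 2.5.3a and R 3.3.3 with GRCm38 and mm10. They do not name a counting tool. The authors' table holds log2 CPM for 13568 genes, with every zero at -6.67. CPM is 2 to the deposited value less 2 to that floor, and 100% of values were then whole reads to within 0.01 read. Since the deposited unit is log2, no count test was the main test; voom on the recovered reads was an alternative.

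The 11710 genes that reached 1 CPM in 6 or more libraries entered 1 limma model (3.58.1, R 4.3.3) of the 4 group means on log2(CPM + 1), whose robust empirical Bayes step used the intensity trend. Two-sided p-values were Benjamini-Hochberg adjusted over all genes and called under 0.05, with 1 spread for the 4 groups. They measure the spread between cultures of 6 mice per phenotype. The procedure was tested on simulated data in which all genes had the same spread setting and cultures were not paired by mouse. That test does not cover the unequal spread of members such as Iigp1. The members, the lists and the alternatives were chosen with earlier results of these data known. Named were all members, of each list up to 4 genes with the smallest p between unstimulated phenotypes, and the 5 genes most like the family mean. Of the genes so named, 1 is not reported here. Gm12185 was named after its promoter was read.

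The series' design text says that samples were split, and the same replicate number within a phenotype was taken as the same mouse. The responses of single mice and the mouse block rest on this assumption. Pairs of libraries deviated together from their group means with r = 0.12 on average (-0.08 to 0.40), and 5 of 12 pairs exceeded 0.1. Between phenotypes the number pairs nothing. The table's columns stand in 2 blocks of 12 libraries with 3 mice of each phenotype, which the labels do not name as batches. No library was repeated, since the chi-square between replicates was 3.04 per degree of freedom or more. Coordinates are those of the deposited table, transcript lengths and overlaps those of GENCODE M21, and promoters those of RefSeq. The tables and plots used Python 3.11.15 with numpy 2.4.6, pandas 2.3.3, Biopython 1.88 and matplotlib 3.10.9.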

Additional observations from a re-analysis of the deposited data

Results flagged for a closer look

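Of the 28 sets of 6 libraries examined (7 genes in 4 groups), 7 held a library far from the others, where chance flags about 1 in 20. In 6 of the 7 this was the unstimulated library of control mouse 3, at the top of its group, with 164.3 CPM of Irgm1, 84.26 CPM of Irgm2, 45.56 CPM of Igtp, 10.51 CPM of Iigp1, 59.97 CPM of Ifi47 and 5.13 CPM of Tgtp2. In the last, stimulated diabetic library 6 held 36.41 CPM of Tgtp1. These 7 are not independent, since 6 come from 1 library.

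The response to stimulation differed between diabetic and control cells (interaction in limma) by 0.48 in Irgm1 (adjusted p = 0.00328), 0.65 in Ifi47 (adjusted p = 0.00121) and 0.72 in Tgtp2 (adjusted p = 0.00312) on the log2 scale. It differed by -0.44 in Tgtp1 (adjusted p = 0.00118), whose unstimulated libraries held 0 to 5 reads.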

How the results depend on the processing

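The number of members called stayed at 6 between unstimulated phenotypes and at 5 to 6 between stimulated ones when each library was left out in turn, at 7 and 7 for the responses, and at 4 to 6 for the interaction. Over all genes the same step gave 1847 to 2227, 5545 to 6170, 10617 to 10668, 10495 to 10530 and 3445 to 4003 calls in this order. Blocking on the shared number between phenotypes gave 6 and 5 members, with Ifi47 lost in stimulated cells (adjusted p = 0.0526); the mouse as a replicate block gave 7, 7 and, for the interaction, 6 members with Irgm2 and Iigp1 added, and changed no other call. Array weights gave 3502 genes between unstimulated phenotypes (2265 otherwise), the first column block 1506 and the second 861, with 12 libraries each. The second block called 3 members between stimulated phenotypes and 1 for the interaction, where all genes came to 2440 and 1642 in the first and second block (3747 otherwise). Scaling by total reads and quantile normalization each called 7 members for the interaction. Only the interaction of Tgtp1 turned its sign, at 1.23 on the deposited log2 values (adjusted p = 0.120) and 0.94 with voom (adjusted p = 0.278); all other directions of members held in each alternative run. Scaling by total reads moved the median of all genes in the responses by -0.62 and -0.57, median-of-ratios scaling by 0.30 and 0.26, and quantile normalization by 0.19 and 0.16, in control and diabetic cells. With total reads the split of calls was 1416 higher and 939 lower between unstimulated (1073 and 1192 otherwise) and 5213 and 1528 between stimulated phenotypes (3494 and 2565 otherwise), where median-of-ratios scaling gave 2718 and 3422. For the responses the split was 2300 and 8856 in control (4081 and 6607 otherwise) and 2371 and 8752 in diabetic cells (4117 and 6457 otherwise) with total reads, and 5318 and 5276 and 5244 and 5244 with median-of-ratios scaling. For the interaction these scalings gave 3208 and 1018, and 1765 and 2033 (2297 and 1450 otherwise). The cause of these changes was not tested. Depth limits Tgtp1 without stimulation.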
